A study of Mus musculus with 6 samples.

Results

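The genes described here encode the major histocompatibility complex (MHC) class I antigen presentation route and the lipid-presenting molecule CD1d. The 9 members are the heavy chain genes H2-K1, H2-D1 and H2-T23, the light chain gene B2m, the CD1d gene Cd1d1, the peptide loading genes Tap1, Tap2 and Tapbp, and the regulator Nlrc5. They were chosen by their function and taken as the rows of the deposited table whose gene name equals a member. All 9 were among its 17985 genes and all 9 passed the filter on low values, a mean of at least 1 CPM (a read count relative to its library's total), which left 15691 genes for testing.

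Messenger RNA was measured by RNA-seq in iNKT1 cells from mouse thymus on a C57BL/6 background. These are the T-bet-expressing subset of invariant natural killer T cells. All mice carried the Cre transgene Tbx21CreTg and the reporter Rosa26-LSL-YFP+/+, and only the conditional knockout mice (cKO) also had Tgfbr2F/F, loxP-flanked alleles of a TGF-beta receptor subunit. The control mice (Ctrl) did not. Each group had 3 libraries, which the series text calls independent replicates, and the comparison asks which transcripts differ when the receptor gene is targeted in these cells. Treatment was given as none, and the age and sex of the mice and any pooling of animals were not given in the labels. The Cre acts where the Tbx21 regulatory sequence of the transgene is active, so deletion depends on that activity, and Cre itself was present in both groups. The labels do not say how the cells were sorted.

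Class I molecules are made of a heavy chain and beta-2-microglobulin and carry peptides from the cytosol to the cell surface. Peptides cut by the proteasome are pumped into the endoplasmic reticulum by the TAP transporter, and tapasin bridges the transporter to empty class I molecules until a peptide fits. CD1d pairs with the same light chain but carries lipids, and in the thymus it is CD1d on other thymocytes that selects iNKT cells, which are themselves the cells measured here.

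Class I genes share sequence, so reads from them can be ambiguous and may have been given to another gene or dropped. How reads with several matches were handled is not given in the sources used here. As a guide, every stretch of 75 bases, the read length, was taken from each gene's annotated transcripts (GENCODE M21) and looked for in the transcripts of all other genes, on both strands. H2-K1 shared 3.10% of its stretches, 116 of 3737, most often with H2-Q10. H2-D1 shared 5.56%, 144 of 2591, and H2-T23 shared 5.91%. Cd1d1 shared 14.2%, all with Cd1d2, a near-identical neighbour that was not among the rows of the table. Beta-2-microglobulin is a single gene and none of its 786 stretches was found elsewhere. Tapbp shared 18.6%, mainly with the overlapping gene Gm19412, and 29.0% of its exon bases overlapped another gene. Tap2 shared 8.27%, Tap1 2.40% and Nlrc5 0.0462%. Overlaps also covered 18.5% of the exon bases of Tap2 and 3.87% of those of Tap1. Whether counting used strand is not stated, so reads from these overlapping parts of Tapbp, Tap1 and Tap2 cannot be told apart from those of the other gene. Of the genes that overlap Tapbp, Zbtb22 lies on the same strand.

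**Figure D1:**
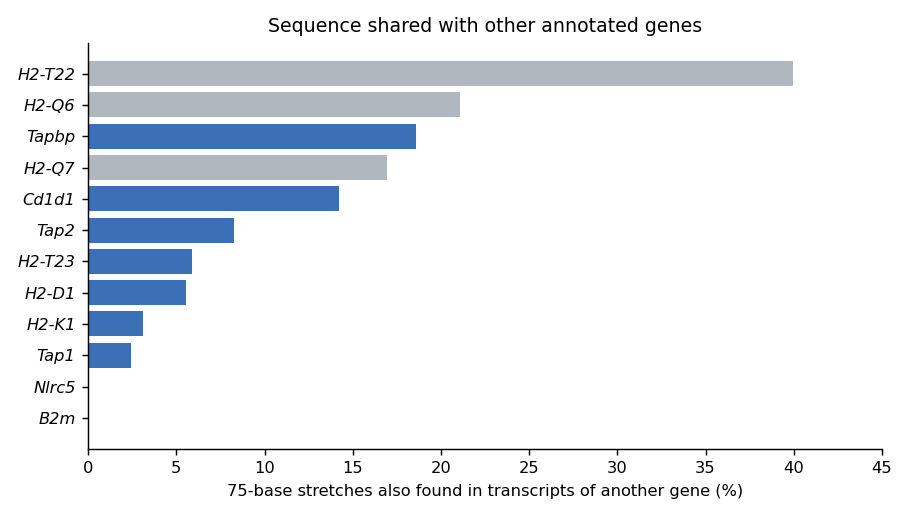
The bars give the percent of each gene's 75-base stretches that also occur in annotated transcripts of another gene, with members in blue and 3 class I relatives named in the text in grey. Among members Tapbp (18.6%) and Cd1d1 (14.2%) share the most and B2m none, while the relative H2-T22 shares 40.0%.

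Classical class I promoters carry a compact module that RFX, CREB/ATF and NF-Y factors bind and on which NLRC5 acts, and upstream of it an enhancer with NF-kB and interferon regulatory factor (IRF) sites. The stretches below, from RefSeq on GRCm38.p6 and written 5′ to 3′ on the gene's strand, are shown because they place H2-K1, the member with the clearest difference, beside the related H2-Q7 and the light chain gene. They are H2-K1 at chr17:34000353-34000464 on the minus strand, H2-Q7 at chr17:35439016-35439149 on the plus strand, B2m at chr2:122147544-122147644 on the plus strand, and for H2-D1 only the 30 bases of the module at chr17:35262993-35263022 on the plus strand. Capitals mark matches to the NF-kB consensus, the IRF core AANNGAAA or its reverse complement TTTCNNTT, the CREB/ATF core TGACG, and the NF-Y box CCAAT or its reverse complement ATTGG.
H2-K1: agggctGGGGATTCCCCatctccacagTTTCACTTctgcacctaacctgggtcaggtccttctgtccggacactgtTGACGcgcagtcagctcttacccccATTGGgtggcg
H2-Q7: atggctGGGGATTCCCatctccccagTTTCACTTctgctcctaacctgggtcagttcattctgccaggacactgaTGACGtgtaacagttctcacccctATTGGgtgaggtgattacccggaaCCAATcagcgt
B2m: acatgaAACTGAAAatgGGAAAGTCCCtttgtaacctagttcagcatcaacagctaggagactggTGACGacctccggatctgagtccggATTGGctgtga
H2-D1: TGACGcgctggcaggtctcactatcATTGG

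The 4 sequences share a TGACG followed by ATTGG on the gene's strand, spanning 30 bases in H2-K1, H2-D1 and B2m and 29 in H2-Q7. Among 32851 RefSeq windows of the 250 bases before a gene start, 0.332% held TGACG followed by ATTGG. There ATTGG had to start at most 30 bases after the start of TGACG, a looser limit than the spans above, which include both motifs. The NF-kB consensus stood in the windows of H2-K1, H2-D1, B2m and H2-Q7, and in 7.25% of all windows. The IRF core was in 21.3% of windows, TGACG in 17.8% and CCAAT in 33.8%, each counted on both strands. In the printed stretches no marked motif overlapped another, apart from NF-kB matches that overlap each other in H2-K1. H2-T23 held IRF cores starting at -124 and -81 and CCAAT at -52 from its start, but no TGACG. Tap1 held TGACG at -86 and CCAAT at -222, in the order opposite to that of the 4 printed genes. Tapbp held ATTGG at -248 and -165. The relatives H2-Q6 and H2-T22, named below, were also searched, and neither held TGACG followed by ATTGG. H2-Q6 held ATTGG at -79 and CCAAT at -55 but no TGACG. H2-T22 held TGACG at -22, with ATTGG only upstream of it, at -201 and -88. Both held the NF-kB consensus and an IRF core. The starts used for H2-D1 (35263094), H2-T23 (36032701) and Tapbp (33919478) lay inside the gene spans given with those genes below. Their windows therefore overlap the annotated gene. The SMAD-binding letters CAGAC, searched on both strands and present in 42.2% of windows, were found before the starts of H2-K1, H2-T23, Tap1 and Tapbp and not in the windows of H2-D1, B2m and H2-Q7. H2-K1 had 2 RefSeq starts, and these letters stood in the window of only 1 of them, at -238. These matches describe letters and not bound sites. Of the members, 6 of 9 had an entry in the promoter table, and Cd1d1, Tap2 and Nlrc5 had none.

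Library totals lay between 28832779 and 68092478 reads, so that 1 read was worth 0.0147 to 0.0347 CPM. The members were far above this limit, with 1456 to 2927 reads per library for Cd1d1 and 124577 to 381976 for H2-K1. The first principal component of the whole table (85.1% of the variance) separated replicate 3 of both groups from the other libraries, and the second (7.27%) separated the groups, so values for replicates 1 and 2 alone, or without a replicate 3 library, are given beside several results. Tgfbr2, the targeted gene, fell from 449 ± 20.7 CPM in Ctrl to 274 ± 16.1 CPM in cKO (adjusted p = 0.0207), counted over the whole gene and not the deleted part. That call was lost without any of Ctrl replicate 1, 2 or 3 or cKO replicate 1 or 2 (adjusted p up to 0.156) and with edgeR's quasi-likelihood test (0.0687). The 10 iNKT1 marker genes were all in the table, with summed levels of 8806 to 10676 CPM in Ctrl and 8877 to 12286 CPM in cKO. Among them Xcl1, a chemokine, fell (164 to 212 CPM in Ctrl and 85.7 to 98.5 CPM in cKO, adjusted p = 0.0281), and Il2rb, the most abundant of them, passed only with the block (0.34, adjusted p = 0.0166).

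Most members had higher levels in cKO, with small differences. The fitted difference was above 0 for 8 of 9 members and below 0 for Cd1d1, and its median over the members was 0.25 on the log2(CPM + 1) scale, against -0.04 over all tested genes. Among all 15691 tested genes 6426 had a difference above 0, the background for the counts above 0 in the lists below. None of the 9 passed limma's adjusted p of 0.05, a threshold passed by 0.663% of all tested genes. By limma's unadjusted p 5 of 9 were under 0.05, beside 6.02% of all tested genes. Neither edgeR without the block nor limma-voom called any member, and DESeq2 called 3 (H2-K1, Tap1 and Tap2, beside 3.53% of all genes). When libraries were paired by replicate number (the replicate block, an assumed pairing), H2-K1 alone passed, beside 2.87% of all tested genes. With that block edgeR also called H2-K1 alone, beside 2.99%. In 6 members every cKO library was above every Ctrl library, which held for 3.89% of all tested genes, and in Cd1d1 every cKO library was below, which held for 7.10%. In these bulk samples fewer cells of a type and less RNA per cell cannot be told apart.

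**Figure D2:**
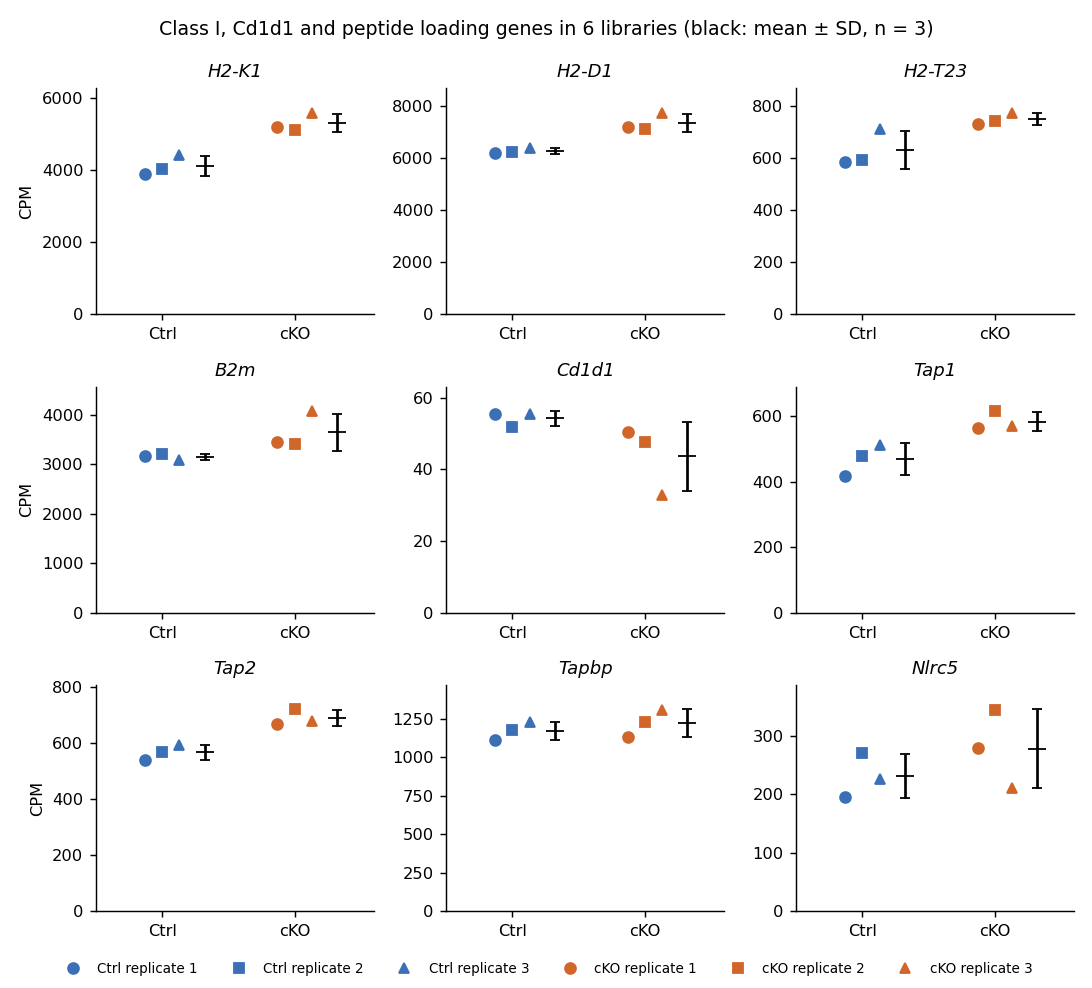
Each panel shows 1 member, with the level in CPM of every Ctrl and cKO library on a linear axis that starts at 0, the marker shape giving the replicate number and the black bars the mean ± SD of each group (n = 3). H2-K1, H2-D1, H2-T23, B2m, Tap1 and Tap2 are separate with cKO above, Cd1d1 is separate with cKO below, and Tapbp and Nlrc5 overlap.

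The heavy chain H2-K1 (ENSMUSG00000061232, mm10 chromosome 17, 33996017 to 34000333, minus strand) encodes the classical class I molecule H-2K, which shows peptides to CD8 T cells. Its level was 3892, 4048 and 4432 CPM in Ctrl replicates 1 to 3 and 5218, 5129 and 5610 CPM in cKO. All cKO libraries stood above all Ctrl libraries, with the highest Ctrl and the lowest cKO value well separated. The mean went from 4124 ± 278 CPM to 5319 ± 256 CPM (SD, n = 3), which is 129.0% of Ctrl. The difference was 0.37 ± 0.08 (SE; 95% interval 0.17 to 0.56) on the log2(CPM + 1) scale. It did not pass without the block (adjusted p = 0.215) and passed with it (adjusted p = 0.0105, interval 0.24 to 0.50), so H2-K1 rose in the paired comparison. By pair of replicates the difference was 0.42, 0.34 and 0.34, so no single pair carried it. It also passed in replicates 1 and 2 alone (adjusted p = 0.0106, beside 1.85% of all tested genes) and with DESeq2 (0.0130), and not with edgeR without the block (0.444) or limma-voom (0.397). In the authors' deposited table H2-K1 was marked as higher, with a log2 fold change of 0.434 and an adjusted p of 0.00713.

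The other classical heavy chain, H2-D1 (ENSMUSG00000073411, chromosome 17, 35262730 to 35267499, plus strand), measured 6208, 6211 and 6394 CPM in Ctrl and 7179, 7127 and 7743 CPM in cKO. The Ctrl libraries lay close together and all cKO libraries were above them. The means were 6271 ± 107 CPM and 7350 ± 341 CPM, 117% of Ctrl, and the difference of 0.23 ± 0.07 did not pass (adjusted p = 0.501, and 0.0800 with the block). By pair it was 0.21, 0.20 and 0.28. The authors' deposited table gives a log2 fold change of 0.299 with an adjusted p of 0.0271 and no mark.

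H2-T23 (ENSMUSG00000067212, chromosome 17, 36029773 to 36032855, minus strand) encodes Qa-1, which shows leader peptides of other class I heavy chains to CD94/NKG2 receptors. It measured 588, 593 and 715 CPM in Ctrl and 733, 745 and 777 CPM in cKO. The groups did not overlap, although Ctrl replicate 3 came near the lowest cKO library. The difference of 0.26 ± 0.10 did not pass (adjusted p = 0.740, and 0.159 with the block). By pair it was 0.32, 0.33 and 0.12, smallest in replicate 3.

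B2m (ENSMUSG00000060802, chromosome 2, 122147686 to 122153083, plus strand) encodes beta-2-microglobulin, the light chain that every heavy chain above and CD1d need. It measured 3163, 3205 and 3089 CPM in Ctrl and 3455, 3413 and 4075 CPM in cKO. All cKO libraries were above all Ctrl libraries, and cKO replicate 3 stood highest. The means were 3152 ± 59.1 CPM and 3648 ± 371 CPM, 116% of Ctrl, and the difference of 0.21 ± 0.09 did not pass (adjusted p = 0.881, and 0.283 with the block). By pair it was 0.13, 0.09 and 0.40, and without cKO replicate 3 the fitted difference was 0.12.

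Cd1d1 (ENSMUSG00000028076, chromosome 3, 86995834 to 86999441, minus strand) encodes CD1d, whose lipid cargo the invariant receptor of iNKT cells reads. It measured 55.5, 51.8 and 55.3 CPM in Ctrl and 50.5, 47.6 and 32.7 CPM in cKO. The groups did not overlap, with cKO lower by little in replicates 1 and 2 and by more in replicate 3. The mean was 54.2 ± 2.09 CPM in Ctrl and 43.6 ± 9.55 CPM in cKO, 80.5% of Ctrl. The difference of -0.33 ± 0.17 (interval -0.74 to 0.07) did not pass (unadjusted p = 0.0943 and adjusted p = 0.99998 with limma; adjusted p = 0.376 with the block). By pair it was -0.13, -0.12 and -0.74, and without cKO replicate 3 it was -0.14. Cd1d1 was the single member with a difference below 0, while the light chain gene that CD1d shares with class I was higher in every pair.

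Tap1 and Tap2 encode the subunits of the peptide transporter and lie close together in the class II region of chromosome 17. Tap1 (ENSMUSG00000037321, 34187553 to 34197225, plus strand) measured 417, 477 and 512 CPM in Ctrl and 564, 616 and 570 CPM in cKO. Tap2 (ENSMUSG00000024339, 34203527 to 34216321, plus strand) measured 538, 569 and 591 CPM in Ctrl and 667, 720 and 677 CPM in cKO. In both genes all cKO libraries were above all Ctrl libraries, and the separation was narrowest against Ctrl replicate 3. Tap1 differed by 0.32 ± 0.10 and reached 124% of Ctrl (adjusted p = 0.517, and 0.0952 with the block). Tap2 differed by 0.28 ± 0.08 and reached 122% of Ctrl (adjusted p = 0.394, and 0.0952 with the block). DESeq2 on the recovered reads called both (adjusted p = 0.0327 for Tap1 and 0.00308 for Tap2). By pair the difference was 0.44, 0.37 and 0.15 for Tap1 and 0.31, 0.34 and 0.19 for Tap2, smallest in replicate 3 for both subunits.

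Tapbp (ENSMUSG00000024308, chromosome 17, 33915899 to 33929288, plus strand) encodes tapasin. It measured 1110, 1175 and 1230 CPM in Ctrl and 1133, 1226 and 1310 CPM in cKO. The groups overlapped, and the difference of 0.06 ± 0.09 did not pass (adjusted p = 0.99998, and 0.789 with the block). Its pairs gave 0.03, 0.06 and 0.09, all above 0 and small. Leaving out Ctrl replicate 1 gave a fitted difference of 0.02, and leaving out Ctrl replicate 3 gave 0.10. Leaving out cKO replicate 1 gave 0.11 and leaving out cKO replicate 3 gave 0.01.

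Nlrc5 (ENSMUSG00000074151, chromosome 8, 94472763 to 94527272, plus strand) encodes the class I transactivator. It measured 196, 271 and 226 CPM in Ctrl and 279, 345 and 210 CPM in cKO. The groups overlapped, since cKO replicate 3 was lower than Ctrl replicates 2 and 3. The difference of 0.25 had a wide interval, from -0.23 to 0.73, and did not pass (adjusted p = 0.99998, and 0.432 with the block). By pair it was 0.51, 0.35 and -0.10, the single member whose pairs disagreed in sign. Leaving out Ctrl replicate 1 gave 0.14, leaving out cKO replicate 2 gave 0.08 and leaving out cKO replicate 3 gave 0.44.

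**Figure D3:**
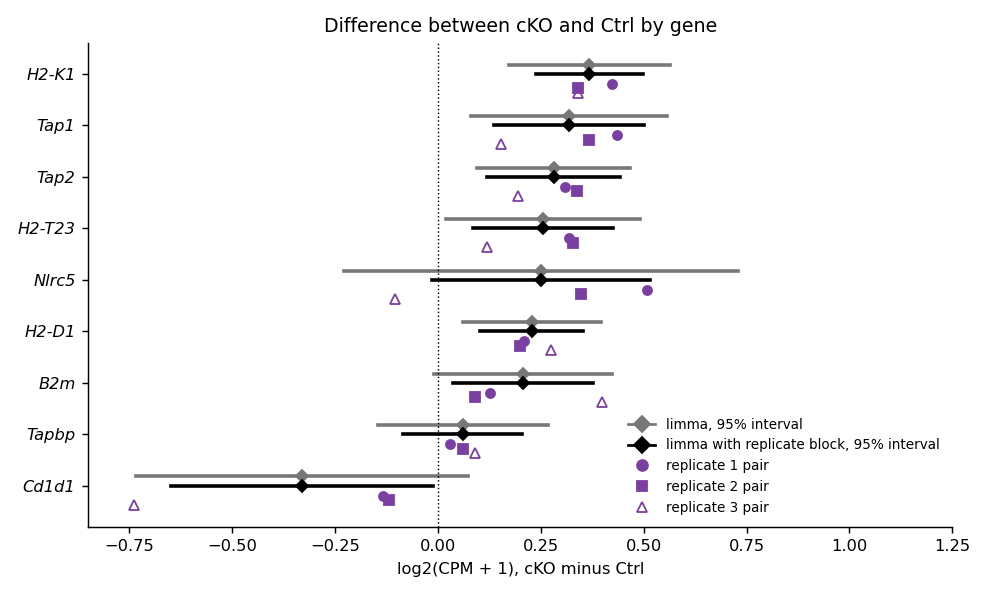
Diamonds give each member's fitted difference between cKO and Ctrl on the log2(CPM + 1) scale with its 95% interval, in grey without and in black with the replicate block, and the circle, square and open triangle below them give the differences within replicates 1, 2 and 3. The 3 pairs of H2-K1 lie between 0.34 and 0.42, those of Cd1d1 are spread from -0.74 to -0.12, and those of Nlrc5 stand on both sides of 0.

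Compared between genes per kilobase of exon, the parts of the class I molecule were the most abundant members. In Ctrl the level was 3665 ± 68.7 CPM per kilobase for B2m, 2432 ± 41.4 for H2-D1 and 1404 ± 94.7 for H2-K1, which ranked 4, 5 and 11 among the 15691 tested genes by mean over the 6 libraries. Tapbp (323) and H2-T23 (219) followed at ranks 109 and 166, then Tap2 (150) and Tap1 (85.6). Nlrc5 (27.2, rank 2058) and Cd1d1 (21.1, rank 3182) were lowest, so the iNKT1 libraries held little CD1d transcript beside the light chain it uses. The order was the same in cKO, and between each pair of neighbours in it the libraries did not overlap in either group.

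**Figure D4:**
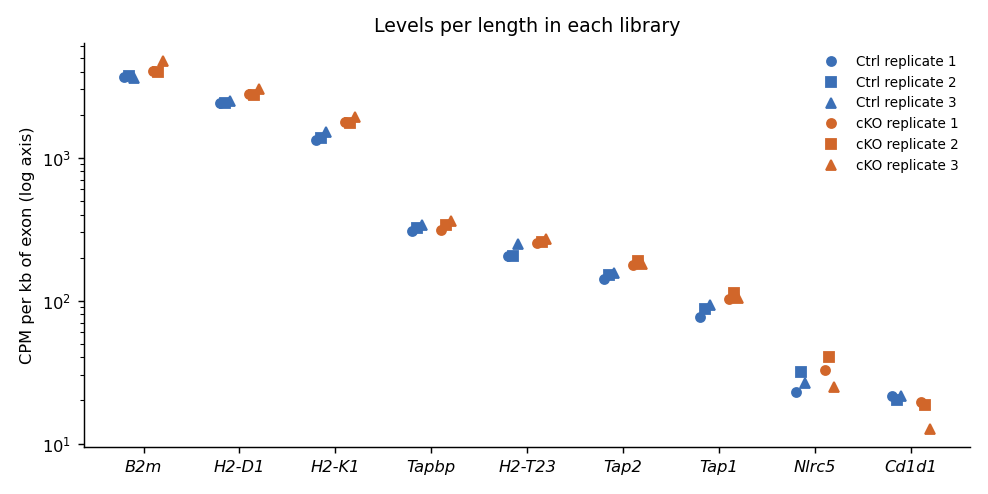
Points show each library's level in CPM per kilobase of exon for the 9 members, on a log axis, with Ctrl and cKO side by side and members ordered by level. B2m is highest at 3665 in Ctrl and 4242 in cKO, and Cd1d1 is lowest at 21.1 and 17.0.

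Because reads may be divided between heavy chain genes, sums over them were also taken, as a description with no test. H2-K1 and H2-D1 together held 10395 ± 382 CPM in Ctrl and 12668 ± 596 CPM in cKO, which is 1.04% and 1.27% of all reads. The 7 H2-Q genes together held 1774 ± 55.9 and 2535 ± 353 CPM. The 5 H2-T genes held 859 ± 105 and 1048 ± 44.7 CPM. Over the 18 H2-K, H2-D, H2-Q, H2-T and H2-M genes in the table the sum was 13206 ± 483 CPM in Ctrl and 16460 ± 306 CPM in cKO, 125% of Ctrl. In each of these sums every cKO library was above every Ctrl library. Reads assigned to the wrong gene among these 18 do not alter the last total, whereas reads dropped as ambiguous are outside it.

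Among class I heavy chains and their relatives, 21 of the 36 listed genes were tested and 17 of them had a difference above 0 (median 0.23). The median was 0.32 in replicates 1 and 2 alone, 0.03 in the replicate 3 pair and 0.405 without cKO replicate 3. Without the block 1 of 21 passed, beside 0.663% of all tested genes, and with the block 3 passed, all higher in cKO, beside 1.24% of all tested genes. The gene that passed without it was H2-Q7 (ENSMUSG00000060550), a Qa-2 gene, with 934, 955 and 934 CPM in controls and 1559, 1433 and 1348 CPM in cKO. Its Ctrl libraries were nearly equal and all cKO libraries were far above them. H2-Q7 rose by 0.62 ± 0.08 to 154% of Ctrl (adjusted p = 0.0305, and 0.00204 with the block). Leaving out any of Ctrl replicates 1 to 3 or cKO replicates 1 or 2 ended the call (adjusted p of 0.105 to 0.203), and leaving out cKO replicate 3 did not (0.0211). H2-T22, a nonclassical gene whose product some gamma-delta T cell receptors bind, averaged 160 ± 23.6 CPM in controls and 218 ± 18.6 CPM in cKO (0.45; adjusted p = 0.438, 0.0226 with the block, 0.0449 in replicates 1 and 2 alone and 0.0440 with DESeq2), and 40.0% of its 75-base stretches were shared with other genes. H2-Q6, chosen after its values were seen because it encodes Qa-2 with H2-Q7, was at 620 ± 33.0 and 823 ± 178 CPM (0.38; adjusted p = 0.860, and 0.135 with the block). By pair H2-Q6 differed by 0.65, 0.44 and 0.07, and it passed in replicates 1 and 2 alone (0.54, adjusted p = 0.00690) and with DESeq2 (0.0403). Without cKO replicate 3 the difference was 0.57 (adjusted p = 0.0522). It shared 21.1% of its stretches and H2-Q7 shared 17.0%. Together H2-Q6 and H2-Q7 held 1561 ± 44.7 CPM in Ctrl and 2270 ± 278 CPM in cKO.

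All 14 peptide supply and loading genes were tested, and 12 had a difference above 0 (median 0.16, and 0.04 without cKO replicate 3). None passed with limma, without or with the block. By limma's unadjusted p 2 were under 0.05, beside 6.02% of all tested genes. DESeq2 called Tap1 and Tap2, beside 3.53% of all tested genes, and edgeR and limma-voom did not. Hspa5, the endoplasmic reticulum chaperone BiP, averaged 905 ± 42.2 CPM in controls and 1028 ± 120 CPM in cKO (0.18, and 0.09 without cKO replicate 3). The 5 genes of the immunoproteasome and its activator, which interferon-gamma induces, were higher in cKO in all 3 pairs in 5 of 5 cases (median 0.28, and 0.13 without cKO replicate 3), which held for 11.5% of all tested genes. None of the 5 passed with limma, without or with the block, none had an unadjusted p under 0.05 without it, and in none were the groups apart. Psmb8, a catalytic subunit, was at 625 ± 84.2 and 772 ± 141 CPM (0.30, and 0.15 without cKO replicate 3; adjusted p = 0.99998, and 0.0692 with the block). Neither edgeR, without or with the block, nor limma-voom nor DESeq2 called a gene of the immunoproteasome, constitutive proteasome, regulator or class II lists. The activator genes Psme1 (354 ± 46.5 and 390 ± 38.6 CPM, 0.15) and Psme2 (326 ± 36.3 and 398 ± 72.1 CPM, 0.28) were also not called, and without cKO replicate 3 their differences were 0.07 and 0.13. Of the 6 genes on the constitutive proteasome list 1, Psmb5, was higher in all 3 pairs (median 0.04). On that list 0 had an unadjusted p under 0.05. It mixes the catalytic subunits Psmb5 (0.19), Psmb6 (0.12) and Psmb7 (0.04) with Psma3, Psma7 and Psme3, which are not catalytic subunits. Psma7 (254 and 265 CPM, 0.05), Psmb6 (173 and 190 CPM, 0.12) and Psme3 (222 and 217 CPM, -0.03) changed sign under some settings, given with the limits of processing.

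Of the 22 tested regulators, 15 had a difference above 0 (median 0.08) and none passed with limma without or with the block. By limma's unadjusted p 2 were under 0.05, beside 6.02% of all tested genes. Of these Ifngr1, a chain of the interferon-gamma receptor, averaged 961 ± 27.4 CPM in controls and 1181 ± 99.4 CPM in cKO (0.29; unadjusted p = 0.0119, adjusted p = 0.458, and 0.103 with the block). All its cKO libraries were above all its Ctrl libraries, which held for 3.89% of all tested genes. The other was Ifnar2, a chain of the type I interferon receptor, named after its values were seen, with 136 ± 2.97 and 112 ± 8.62 CPM (-0.28; unadjusted p = 0.0161, adjusted p = 0.519, and 0.172 with the block). Every cKO library was lower for Ifnar2, which held for 7.10% of all tested genes. Jak1, a kinase of both receptors, was at 1395 and 1388 CPM, and its difference of -0.01 turned to 0.04 under TMM scaling.

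Among the 16 genes of CD1d lipid loading and trafficking the differences were centred on 0 (median 0.00), with 9 above and 7 below. The 2 that passed were both lower in cKO, beside 0.459% of all tested genes that were called lower. The same 2 passed with the block, beside 1.64% of all tested genes called lower with it. Ctss encodes cathepsin S, an endosomal protease best known for trimming the class II invariant chain. It fell from 91.9 ± 3.02 CPM to 36.5 ± 6.15 CPM, 39.7% of Ctrl (-1.32 ± 0.14, adjusted p = 0.0133, and 0.000412 with the block). Glb1, the lysosomal beta-galactosidase, fell from 65.0 ± 7.40 to 36.9 ± 2.89 CPM, 56.7% of Ctrl (-0.80 ± 0.12, adjusted p = 0.0461, and 0.00804 with the block). Leaving out any 1 library ended the call of Glb1 (adjusted p of 0.101 to 0.204), and leaving out any 1 Ctrl library ended that of Ctss (up to 0.0939). Glb1 also did not pass under TMM scaling (0.0869), and neither gene passed with edgeR without the block (0.0562 for Ctss and 0.122 for Glb1). Glb1 did not pass with limma-voom either (0.101). Whether Glb1 lies near the targeted Tgfbr2 alleles, which only cKO mice carried, was not examined, and any part of that in its difference was not tested. Psap, which yields the saposins that lift lipids onto CD1d, was at 592 and 650 CPM (0.14, and 0.06 without Ctrl replicate 3), and the adaptor subunits Ap2m1 (265 and 266 CPM) and Ap3d1 (160 and 163 CPM) were not called.

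Class II genes were low in these cells. Of 6 tested, 3 were above and 3 below 0 (median -0.06), and none passed with limma without or with the block. By limma's unadjusted p 1 was under 0.05, beside 6.02% of all tested genes. Ciita, the class II transactivator and a relative of Nlrc5, averaged 5.59 ± 1.18 CPM in controls and 2.33 ± 1.20 CPM in cKO (-1.04; unadjusted p = 0.0402, adjusted p = 0.761, 0.0542 with the block, and 0.0256 with TMM scaling and the block). H2-DMa was at 28.9 and 29.1 CPM and the invariant chain gene Cd74 at 3.60 and 3.65 CPM.

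Of 17 tested genes listed as receptors that read class I or CD1d, 9 were above and 8 below 0 (median 0.08). With limma none passed without the block, and 3 had an unadjusted p under 0.05, beside 6.02% of all tested genes. With the block 1 passed, beside 1.64% of all tested genes called lower with the block. That gene was Klra5, the inhibitory receptor Ly49E, with 175 ± 57.9 CPM in controls and 54.8 ± 20.0 CPM in cKO (-1.67; adjusted p = 0.136, 4.4e-05 with the block and 0.0463 in replicates 1 and 2 alone). Ly49E was listed as a member of the Ly49 family, and that it reads class I is not shown here. Klrk1, the activating receptor NKG2D, was at 541 ± 128 and 750 ± 132 CPM (0.48, and 0.31 without Ctrl replicate 2; adjusted p = 0.05003 with the block, just above the threshold, and 0.0210 with TMM scaling and the block). Klrd1, which encodes CD94, was at 442 and 381 CPM (-0.21, and -0.12 without Ctrl replicate 1). Klrc1, the NKG2A chain that pairs with CD94 on Qa-1, was chosen after its values were seen. It was at 156 ± 77.4 and 327 ± 16.8 CPM (1.22; adjusted p = 0.590, and 0.221 with the block). Ctrl replicate 2 stood apart at 67.0 CPM, and without it the difference was 0.70. With edgeR and the block Klra5, Klrk1 and Klrc1 were called, beside 2.99% of all tested genes, DESeq2 called Klra5, beside 3.53%, and edgeR without the block and limma-voom called none of the 17. Trac, the T cell receptor alpha constant gene, was at 1677 and 1625 CPM.

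**Figure D5:**
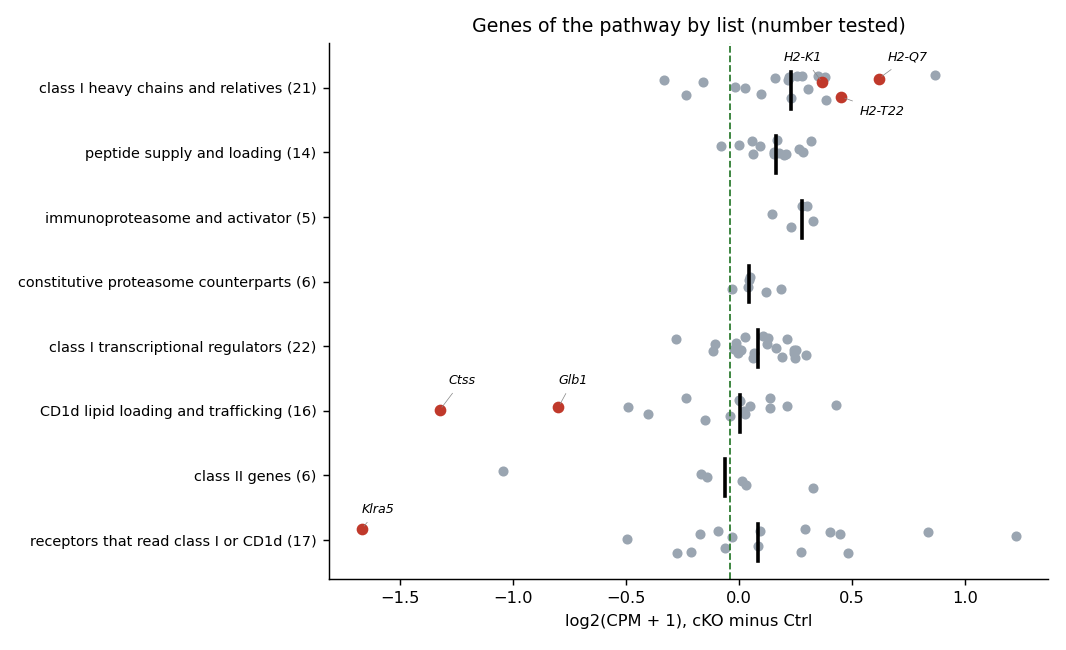
Each point is a tested gene's difference between cKO and Ctrl on the log2(CPM + 1) scale, by list, with red and a name for genes whose adjusted p was under 0.05 with the replicate block, black bars for list medians and a green dashed line for the median of all tested genes. The named heavy chain genes H2-K1, H2-T22 and H2-Q7 are on the higher side, and Ctss, Glb1 and Klra5 on the lower.

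Over the 6 libraries the pattern of each member on the log2(CPM + 1) scale was compared with that of the 106 tested genes of these lists. This is a description, since the genes share libraries, the step between replicate 3 and the others, and the contrast of the groups. H2-K1 and H2-D1 were each other's closest match (Pearson r = 0.978). Tap1 and Tap2 were both closest to Irf2, an interferon regulatory factor (r = 0.986 and 0.979). B2m was closest to Ifngr1 (0.946), H2-T23 to Cd8a (0.968), Tapbp to Sec61a1 (0.979), Nlrc5 to H2-Q4 (0.879) and Cd1d1 to the class I-like Mr1 (0.929). Cd8a was low, with 20 to 262 reads per library.

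Cells other than iNKT1 can hold class I, class II and CD1d transcripts, so their markers were read in the same libraries. The 4 of 6 B cell markers in the table summed to 22.6 to 28.1 CPM in Ctrl and 15.5 to 43.6 CPM in cKO. The 6 of 10 myeloid and dendritic markers summed to 0.774 to 21.2 and 1.70 to 20.1 CPM, and Csf1r, Flt3, Clec9a and Siglech were each at 0 in at least 1 replicate 3 library and in no other library. Replicate 3 held the lowest sum of each group, and 4406 and 4590 genes of the whole table were at 0 in its libraries, against 0 to 5 in the others. The 6 of 8 markers of double-positive thymocytes, cells that carry CD1d, summed to 11.8 to 28.8 and 19.4 to 38.6 CPM. The 4 of 7 epithelial and stromal markers summed to 29.9 to 41.1 CPM in Ctrl and 53.6 to 72.0 CPM in cKO, which did not overlap. Most of this was Pecam1, the only one of them that was higher (1.07; adjusted p = 0.0423, and 0.00136 with the block). Epcam (-0.03), Col1a1 (-0.29) and Pdgfra (-0.18) had differences below 0 and were not called. The 6 of 7 iNKT2 and iNKT17 markers summed to 244 to 287 and 208 to 253 CPM. The part of these levels in the differences of the members was not tested.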

How the data were processed

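The deposited table gave 1 row per gene for 3 Ctrl and 3 cKO libraries of 75-base reads. Its columns name the groups WT and KO, taken as Ctrl and cKO. CPM values were computed by the authors from read counts, and 100% of them were whole multiples of 1 read (tolerance 0.001). Per the submitters' processing notes the tools were Trimmomatic 0.33, STAR 2.5.2, HTSeq 0.6.1 and edgeR, with build mm10, without roles or order. Log2 fold changes, mean log2 CPM, a likelihood-ratio score and p-values were also deposited by the authors, per the file headers. Positions come from the deposited table, and exon lengths and transcripts from GENCODE M21, which held 17835 of the 17985 identifiers. The deposited gene length exceeded the gene's span for 1387 genes and was not used.

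Log2(CPM + 1) values of the genes averaging 1 CPM or more over the libraries were fitted with limma 3.58.1 (R 4.3.3; group only, mean-variance trend, robust moderation), with Benjamini-Hochberg adjustment over all 15691 genes and a threshold of 0.05. Unless another tool is named, p-values are limma's, two-sided, and differences are on that scale, which understates changes of low genes. Means are ± SD over 3 libraries and fitted differences ± SE. Recovered reads were tested with edgeR 4.0.16 (40 genes called, and 469 with the block), limma-voom and DESeq2 1.42.0. The procedure was tested on simulated data that held no replicate effect. That test therefore does not cover the step between replicate 3 and the other libraries. Intervals and depth cover these libraries only, and reads carry no molecular identifiers.

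Whether replicate numbers pair libraries was checked on deviations from group means. Same-numbered libraries correlated at 0.855, 0.687 and 0.924. Because deviations within a group cancel out, the step between replicate 3 and the others raises these correlations however the other libraries are numbered. Libraries with different numbers were not compared, so the check cannot show how those other libraries pair. That the numbers pair the samples is therefore an assumption of the block. The labels do not state it, and the fit without the block was kept as the main one.

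The members, lists, markers and motifs were chosen with earlier results of these data known, and the motifs with the sequences in view. From each list the text names genes past the threshold without or with the block (at most 6) and the 3 with the highest mean, and for each member the listed gene with the highest correlation. Other genes are named as chosen after their values were seen. A gene that the rule selects is not reported here. Listed genes without a row in the table were not analysed here.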

Additional observations from a re-analysis of the deposited data

How the results depend on the processing

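No member changed direction under any of the 14 other settings or with any 1 library left out. The number of members past the threshold was 0 and became 1 with the replicate block, with TMM scaling and the block, in replicates 1 and 2 alone and with edgeR and the block (H2-K1 each time), and 3 with DESeq2. It was 0 to 0 when 1 library was left out. Over all genes 104 passed. The count was 451 with the replicate block, 513 with TMM scaling and the block, 291 in replicates 1 and 2 alone, 40 with edgeR, 469 with edgeR and the block, 554 with DESeq2 (3955 genes had no adjusted p), 62 with limma-voom, 26 at a threshold of 0.01, and 14 to 85 with 1 library left out. Of these calls 30.8% were higher in cKO, and 43.0% with the block, 47.6% with TMM scaling and the block, 48.0% with edgeR and the block and 50.9% with DESeq2. Differences near 0 changed sign. In replicates 1 and 2 Psma7 was at -0.0392 and Ap2m1 at -0.0282. Psme3 was at 0.0141 with TMM scaling, without or with the block, 0.0199 with size factors, 0.0196 with edgeR, 0.0145 with edgeR and the block, 0.0253 with DESeq2 and 0.0157 with limma-voom. Jak1 was at 0.0370, 0.0427, 0.0360, 0.0371, 0.0414 and 0.0373 in the same order, and 0.0206 with upper quartile scaling. Trac was at 0.0106 with edgeR and 0.0156 with DESeq2. With 1 library left out the range was -0.0948 to 0.154 for Psma7, -0.0207 to 0.197 for Psmb6, -0.0631 to 0.0103 for Psme3, -0.0776 to 0.0493 for Jak1, -0.127 to 0.101 for Ap2m1, -0.104 to 0.155 for Ap3d1, -0.0716 to 0.0898 for H2-DMa, -0.253 to 0.255 for Cd74 and -0.228 to 0.0606 for Trac. The median of the class II list ran from -0.16 to 0.07, that of the receptors from -0.11 to 0.17 and that of the constitutive proteasome list from -0.04 to 0.15. The cause was not tested. The block in limma changed no named call other than those given with the genes, and with TMM scaling and the block Ciita, Klrk1 and Cd8a (adjusted p = 0.0211) also passed. A group left with 2 libraries is assumed to vary like the other, and 3 libraries a group limit what can be called among differences as small as those of the members.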
